A study of Mus musculus with 16 samples.

Results

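The liver's response to a Western diet was compared between mice labelled CYP7A1 transgenic (Tg) and mice labelled wild type (WT), gene by gene, across the whole transcriptome. The quantity reported is the genotype by diet interaction. It is the difference in log2 expression between Tg-labelled and WT-labelled livers on the Western diet minus the same difference on chow, and it equals the diet effect in Tg-labelled livers minus the diet effect in WT-labelled livers. A positive interaction means that the Western diet moved a gene higher in the Tg-labelled than in the WT-labelled livers, and a negative one the reverse. All 16 arrays entered the fit, and 16558 of 16593 annotated genes were tested. The other 35 were left out because their values on the arrays also carried another gene's name.

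The samples were total liver RNA from 16 male C57BL/6 mice, 1 array per mouse, in 4 groups of 4. The groups were WT littermates on standard chow, Tg littermates on chow, WT on the Western diet and Tg on the Western diet. The labels state that feeding began at 12 to 14 weeks of age and ran for 4 months, that fat gave 42% of the calories of the Western diet, which held 0.2% cholesterol, and that all mice were fasted for about 16 h before the livers were taken at 6 months of age. Neither the promoter nor the species of the CYP7A1 transgene is stated in the labels. Values are log2 signal intensities, so a difference of 1 is a doubling, and a level of one gene cannot be set against that of another.

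Cholesterol 7-alpha-hydroxylase, the enzyme encoded by Cyp7a1, starts the classic route from cholesterol to bile acids in hepatocytes. When the sterol content of the endoplasmic reticulum falls, the protein SCAP escorts the transcription factor SREBP2 to the Golgi, where it is activated, and SREBP2 raises the genes of cholesterol synthesis and uptake, while dietary cholesterol lowers them. SREBP2 binds sterol response elements, commonly beside a CCAAT box that binds NF-Y. Fat and cholesterol feeding of mice is also known for the gathering of macrophages in the liver, among them lipid-associated macrophages, which carry receptors and enzymes for the uptake and breakdown of lipid.

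The sterol synthesis genes were the group with the largest positive interactions, so the promoters of 3 called members and of 1 uncalled member are shown, 250 bases before to 50 bases after the annotated start, from RefSeq on GRCm38.p6. Promoter entries existed for 21 of the 24 measured members of the cholesterol synthesis list and the list of other SREBP2 targets. Msmo1, Tm7sf2 and Cyp51 were the called members of largest interaction with an entry. Hmgcs1 did not pass the test and is shown because its promoter was the only one of the members that held the sterol element letters TCACNCCAC. Capitals mark that motif and CCAAT, searched on both strands, with CCAAT printed as ATTGG where it lies on the opposite strand. No match overlapped another motif.
Msmo1, chr8:64733529-64733828, minus strand: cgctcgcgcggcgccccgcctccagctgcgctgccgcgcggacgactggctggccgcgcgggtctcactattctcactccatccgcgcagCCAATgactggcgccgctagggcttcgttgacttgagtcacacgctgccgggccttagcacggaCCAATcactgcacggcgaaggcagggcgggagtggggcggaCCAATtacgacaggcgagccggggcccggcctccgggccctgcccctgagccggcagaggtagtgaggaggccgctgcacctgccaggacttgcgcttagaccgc
Tm7sf2, chr19:6067801-6068100, minus strand: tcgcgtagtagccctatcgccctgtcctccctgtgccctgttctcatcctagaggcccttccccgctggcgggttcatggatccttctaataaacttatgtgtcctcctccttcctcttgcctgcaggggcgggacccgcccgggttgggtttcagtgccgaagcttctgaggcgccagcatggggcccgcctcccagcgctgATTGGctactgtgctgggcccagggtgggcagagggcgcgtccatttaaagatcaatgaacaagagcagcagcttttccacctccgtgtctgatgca
Cyp51, chr5:4104648-4104947, minus strand: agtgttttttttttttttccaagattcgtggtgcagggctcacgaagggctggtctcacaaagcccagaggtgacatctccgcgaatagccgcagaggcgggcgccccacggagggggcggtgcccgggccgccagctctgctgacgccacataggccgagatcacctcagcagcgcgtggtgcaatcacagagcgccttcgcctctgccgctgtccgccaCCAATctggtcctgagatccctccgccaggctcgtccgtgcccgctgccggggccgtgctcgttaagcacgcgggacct
Hmgcs1, chr13:119690101-119690400, plus strand: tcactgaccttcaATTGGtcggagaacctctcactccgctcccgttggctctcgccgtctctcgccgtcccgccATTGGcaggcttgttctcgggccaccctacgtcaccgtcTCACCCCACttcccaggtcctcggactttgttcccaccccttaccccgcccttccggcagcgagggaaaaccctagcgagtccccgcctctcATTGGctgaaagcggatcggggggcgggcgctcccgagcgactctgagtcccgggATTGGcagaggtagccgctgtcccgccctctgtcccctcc

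In these windows the CCAAT match of Tm7sf2 began 47 bases before the start and that of Cyp51 29 bases before it. Msmo1 held 3 matches, at 160, 96 and 55 bases. Over all entries of the list members, which include alternative starts, CCAAT occurred in 20 of 28 promoters (71.4%) and in 12 of the 18 promoters of called members (66.7%). The share over all 32851 promoters of the table was 37.4%. Counted by gene, 20 of the 21 members with an entry held CCAAT in at least 1 promoter, against 41.1% of all genes with an entry. For TCACNCCAC this was 1 of the 21, against 1.44%. TCACNCCAC occurred in 1 of the 28 member promoters (3.57%), in 0 of the 18 of called members, and in 1.24% of all promoters. These matches are a description of the letters in these windows. Other spellings of the sterol element were not searched, so a promoter without TCACNCCAC is not shown to lack such an element.

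The targeted gene was examined first. Cyp7a1 read 11.68, 12.27, 11.49 and 11.30 in the 4 WT-labelled livers on chow and 7.84, 6.43, 7.27 and 6.63 in the same number of Tg-labelled livers on that diet. With Western feeding its levels were 11.57, 10.79, 10 and 12.41 in the WT-labelled livers and 6.48, 6.24, 6.20 and 7.33 in the Tg-labelled ones. The transcript detected by this probe was thus lower in every Tg-labelled liver than in every WT-labelled liver on the same diet, with genotype differences of -4.64 on chow (SE 0.41) and -4.63 on the Western diet (SE 0.41) and limma adjusted p of 2.24e-06 and 1.28e-06. This direction could check a label that names a transgene of this gene only if the probe reads that transgene. Whether the probe reads the transgene was not tested, so groups are called by their labels and every genotype direction rests on those labels. The interaction of Cyp7a1 was 0.01 (SE 0.59, adjusted p = 0.998).

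Array medians of the value table lay between 6.254 and 6.264. Genes near the overall median of 6.25 are close to background, and a difference from a group mean under that mark has an uncertain size. On every array the hepatocyte marker list averaged above the mark (10.93 to 11.33), while adipocyte markers (5.96 to 6.12) and skeletal muscle markers (5.82 to 5.98) averaged below it. Replicates 1 and 2 differed from replicates 3 and 4 in raw signal on chow and in Tg_WD. On chow the lowest 5% of rows reached 56.3 to 62.9 in the former and 53.4 to 55.3 in the latter. In Tg_WD they reached 58.4 and 55.8 against 52.3 and 52.4, and in WT_WD the 2 pairs overlapped. Interactions within each pair of replicates are therefore given for the main lists and for the called genes described whose value differed by over 1.5 times from the pooled one in either pair. Tg_Chow replicate 4 stood apart on the macrophage lists, and macrophage results are given with and without it.

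The interaction passed the test (limma, Benjamini-Hochberg adjusted p under 0.05 over all genes, no minimum fold) for 353 of 16558 genes (2.13%). Of these, 137 were higher (0.827% of genes tested) and 216 lower (1.3%), and 28 and 56 of them reached a 2-fold difference between the diet effects. The median interaction over all genes was 0.01. An unadjusted p under 0.05 was reached by 2145 of the 16558 genes. The count of 353 fell to 224 without WT_Chow replicate 3, to 230 without WT_WD replicate 1 and to 221 without WT_WD replicate 2, and all 353 genes kept their sign in each of these fits. Within replicates 1 and 2 alone 55 genes passed and within replicates 3 and 4 alone 17 passed, with 2 arrays per group. Of the 353 genes, 339 averaged above the brightness mark.

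**Figure D1:**
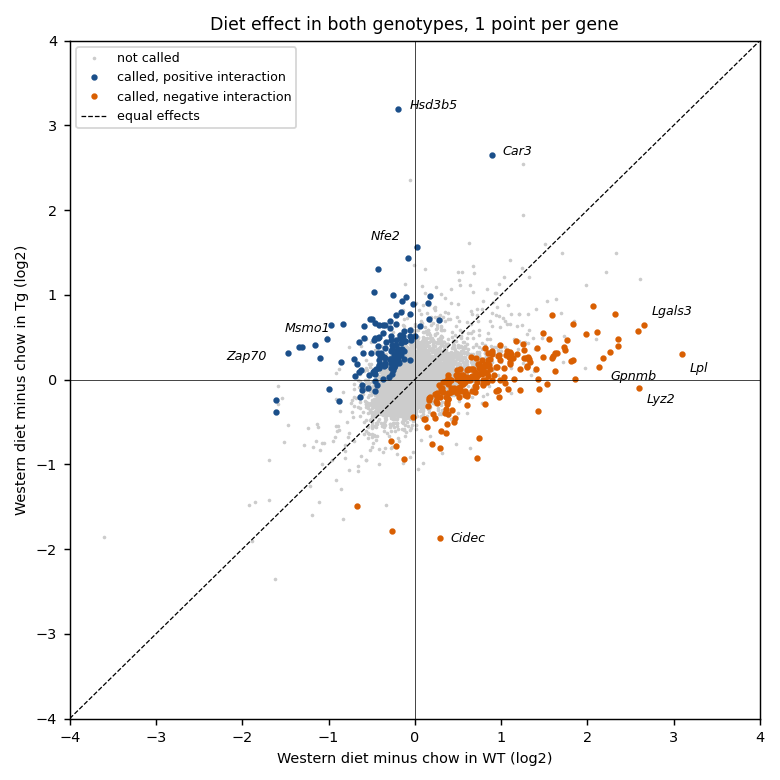
Effect of the Western diet (log2, Western diet minus chow) in WT-labelled livers on the horizontal axis and in Tg-labelled livers on the vertical axis, for all 16558 genes, with genes called higher and lower in the interaction coloured. Called genes lie away from the diagonal of equal effects: the 137 higher genes above it and the 216 lower genes below it.

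The 2 directions differed in their shape, described here from the same arrays that chose the genes and so with no test. Among the 216 genes with a lower interaction the median diet effect was 0.71 in the WT-labelled livers and 0.02 in the Tg-labelled ones. Western diet feeding raised 189 of them in WT-labelled livers by the same adjusted threshold, against 4.86% of all genes. In Tg-labelled livers 115 of the 216 moved the same way by less, 6 moved the same way by more and 95 had the opposite sign. The 4 WT_WD arrays all lay above the other 12 arrays for 140 of the 216, against 2.31% of all genes. The typical gene of this set was therefore high in 1 group of the 4, WT-labelled livers on the Western diet.

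Among the 137 genes with a higher interaction, the diet effects had opposite signs in 119, with medians of -0.29 in the WT-labelled livers and 0.33 in the Tg-labelled ones. The diet effect alone passed the test in WT-labelled livers only for 59 genes (8.46% of all genes passed it there), in Tg-labelled livers only for 49 (4.14% passed there), in both for 15 and in neither for 14. The 4 Tg_WD arrays lay above the other 12 for 39 of the 137 genes (0.586% of all genes) and the 4 WT_WD arrays below the others for 44 (1.61%). By group means, Tg_WD was the highest group for 94 of the 137 genes and WT_Chow for 37, and WT_WD was the lowest for 93 and Tg_Chow for 41. The genotype difference had opposite signs on the 2 diets in 89 of the 137 and in 179 of the 216, but both differences passed the test in opposite directions for only 5 and 9 genes, where 3.94% of all genes passed for genotype on chow and 6.78% on the Western diet. The count for genotype on chow was 652 genes, and 988 with replicate number as a block within each diet.

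Cholesterol synthesis enzymes formed the group with the most members called higher. Of 16 measured enzymes 12 had a positive interaction past the test, against 0.827% of all genes, 0 had a negative one, and the list median was 1.18 against 0.01 over all genes. By the diet effects alone, the Western diet lowered 10 of the 16 and raised 0 in WT-labelled livers (3.61% of all genes fell), and raised 6 and lowered 0 in Tg-labelled livers (2.07% of all genes rose). The median diet effect over the 16 was -0.51 in the WT-labelled livers and 0.48 in the Tg-labelled ones. The mean log2 level of the list was 8.23 to 8.59 in WT_Chow, 7.72 to 7.86 in WT_WD, 10.05 to 10.33 in Tg_Chow and 10.64 to 10.81 in Tg_WD, so the 4 groups did not overlap.

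The enzymes with the largest interactions act from farnesyl diphosphate onward. Msmo1 encodes the methylsterol monooxygenase that removes the C4 methyl groups of sterol intermediates. It read 9.85, 10.25, 9.41 and 9.22 in WT_Chow and 8.30, 8.03, 8.43 and 8.59 in WT_WD. Its levels were 12.21, 12.36, 12.55 and 12.52 in Tg_Chow and 12.78, 12.76, 12.87 and 12.81 in Tg_WD. WT-labelled arrays on the Western diet all lay below those on chow, and Tg-labelled arrays on the Western diet all lay above those on chow. The diet effect was -1.34 in WT-labelled livers (adjusted p = 4.66e-05) and 0.39 in Tg-labelled livers (adjusted p = 0.240, SE 0.17 for each), and the interaction was 1.73 (SE 0.23, adjusted p = 0.000887).

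Tm7sf2, a sterol C14 reductase, had the smallest adjusted p of the list. Its levels were 8.36, 8.33, 8.55 and 8.42 in WT_Chow against 6.82, 6.96, 7.29 and 7.34 in WT_WD, and 8.65, 8.90, 9.02 and 8.71 in Tg_Chow against 9.5, 9.18, 9.05 and 9.07 in Tg_WD. The genotype difference widened from 0.41 on chow to 2.10 on the Western diet, an interaction of 1.69 (SE 0.17, adjusted p = 0.000104). Fdps makes farnesyl diphosphate, the precursor of squalene. It read 9.98, 9.92, 9.23 and 9.12 in WT_Chow, 8.86, 8.52, 8.56 and 8.44 in WT_WD, 12.39, 12.83, 12.69 and 12.75 in Tg_Chow and 13.49, 13.36, 13 and 13.39 in Tg_WD. No 2 of these groups overlapped, and the interaction was 1.61 (SE 0.24, adjusted p = 0.00214).

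Sqle, the squalene epoxidase that commits squalene to sterols, read 7.34, 7.83, 6.87 and 6.97 in WT_Chow and fell to 6.23, 6.13, 6.36 and 6.20 in WT_WD. The WT_WD mean was under the brightness mark, so the size of this difference is uncertain. In Tg_Chow Sqle read 10.44, 10.95, 10.71 and 10.55 and in Tg_WD 11.17, 11.13, 10.94 and 11.35, where the 2 groups overlapped, and its interaction was 1.51 (SE 0.23, adjusted p = 0.00204). Cyp51, the lanosterol 14-alpha-demethylase, read 7.81, 8.49, 7.74 and 7.65 in WT_Chow and 6.77, 6.67, 6.78 and 6.83 in WT_WD. Its Tg-labelled levels were 10.59, 11.14, 10.67 and 10.92 on chow and 11.32, 11.33, 11 and 11.29 on the Western diet. Only the WT-labelled groups separated by diet for Cyp51, and its interaction was 1.57 (SE 0.21, adjusted p = 0.000888). Hsd17b7, a sterol 3-keto reductase, had an interaction of 1.36 (adjusted p = 0.000461).

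The other called enzymes had smaller interactions. Mvd, the mevalonate diphosphate decarboxylase, had 1.25, Lss, the lanosterol synthase, 1.22, and Dhcr7, which makes cholesterol from its last precursor, 1.14. The WT_WD mean of Mvd (6.08) lay under the brightness mark, so the size for Mvd is uncertain. Pmvk, the phosphomevalonate kinase, had an interaction of 0.95, Sc5d, the sterol C5 desaturase, 0.81, and Nsdhl, a sterol 4-alpha-carboxylate dehydrogenase, 0.75. Sc5d was the only called enzyme of the list that did not have a negative diet effect in WT-labelled livers (0.18). The remaining 4 enzymes did not pass the test. Hmgcs1, the cytosolic HMG-CoA synthase, had an estimate of 0.93 and Idi1, the isopentenyl diphosphate isomerase, 1.03, each with an adjusted p of 0.0811. Ebp, a sterol isomerase, had 0.45 (adjusted p = 0.112) and Lbr, a nuclear envelope protein with sterol reductase activity, 0.03 (adjusted p = 0.963).

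The size of the sterol result differed between the 2 pairs of replicates. The list median was 1.54 in the first pair (replicates 1 and 2) and 0.82 in the second (replicates 3 and 4), and 9 and 4 members passed the test there. Msmo1 had 2.36 and 1.10, Tm7sf2 2.02 and 1.37, and Sqle 1.86 and 1.16. Mvd had 1.91 in the first pair and 0.58 in the second, Lss 1.66 and 0.78, and Sc5d 1.12 and 0.5. With any 1 array left out, 12 to 14 of the 16 enzymes passed the test and the list median stayed between 1.07 and 1.25.

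Regulators and carriers around SREBP2 followed in part. Of 8 measured members 4 had a positive interaction past the test (0.827% of all genes) and 0 a negative one, with a list median of 0.56. Stard4, a cytosolic sterol carrier, read 9.04, 9.34, 8.92 and 8.10 in WT_Chow and 7.94, 8.10, 8.11 and 7.91 in WT_WD, and 10.26, 10.44, 10.21 and 10.11 in Tg_Chow and 11.09, 10.96, 10.48 and 11.12 in Tg_WD. Its WT-labelled groups overlapped through WT_Chow replicate 4, its Tg-labelled groups did not overlap, and the interaction was 1.49 (SE 0.27, adjusted p = 0.00757). Rdh11, a retinol dehydrogenase, had 1.24, Insig1, which holds the SCAP and SREBP complex in the endoplasmic reticulum, 0.65, and Scap itself 0.63. Srebf2, which encodes SREBP2, had 0.49 (adjusted p = 0.355), Tmem97 0.19, Insig2 -0.37 and Npc1l1 -0.01, and none of these passed. The list median was 0.82 in replicates 1 and 2 and 0.25 in replicates 3 and 4, and Insig1 had 0.88 and 0.42.

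**Figure D2:**
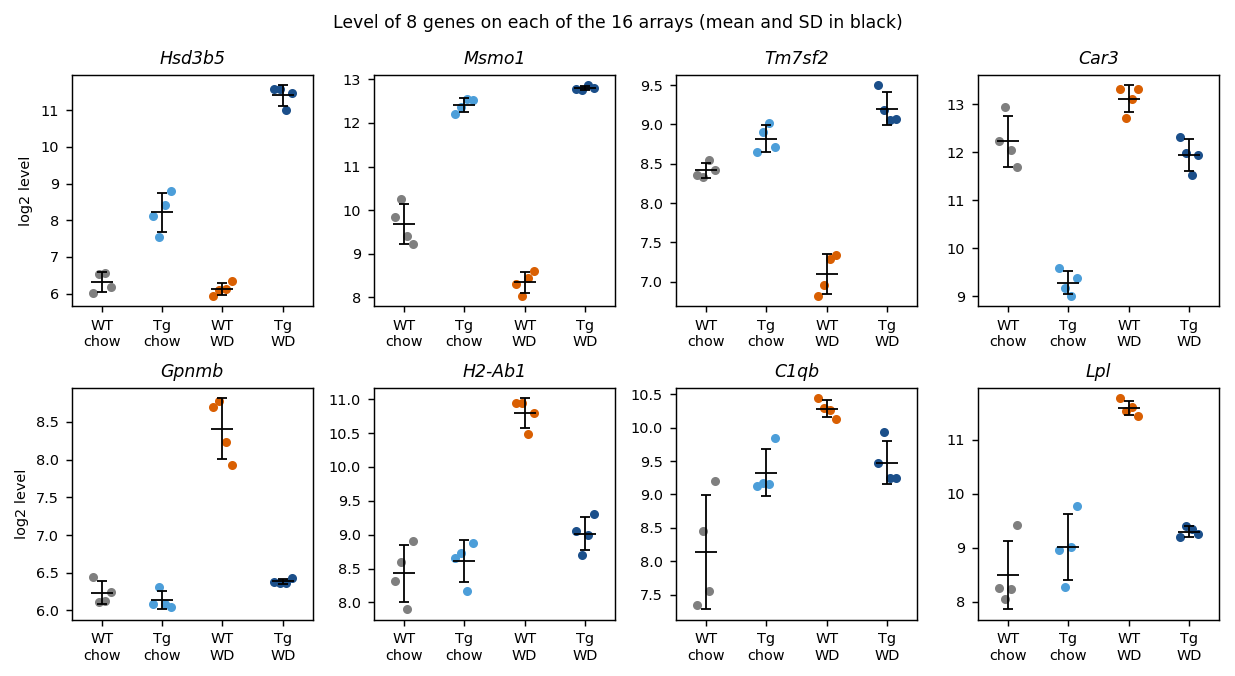
Log2 signal on each of the 16 arrays for Hsd3b5, Msmo1, Tm7sf2, Car3, Gpnmb, H2-Ab1, C1qb and Lpl, with 1 point per array and the group mean as a line. Msmo1 and Tm7sf2 are lowest in the 4 WT_WD arrays and highest in the 4 Tg_WD arrays, while Gpnmb, H2-Ab1, C1qb and Lpl are highest in the 4 WT_WD arrays.

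Hsd3b5 had the largest interaction of all called genes and the smallest adjusted p. It encodes a 3-ketosteroid reductase that in mouse liver is expressed mainly in males and depends on growth hormone. It read 6.02, 6.53, 6.57 and 6.17 in WT_Chow and 5.94, 6.11, 6.14 and 6.34 in WT_WD, close to the brightness mark in both. The Tg-labelled levels were 8.11, 7.54, 8.42 and 8.79 on chow and 11.59, 11.58, 11 and 11.47 on the Western diet, and these 2 groups did not overlap. The diet effect was 3.20 (SE 0.20) in Tg-labelled and -0.19 in WT-labelled livers, an interaction of 3.38 (SE 0.29, 10.4-fold, adjusted p = 2.35e-05). Since the WT_WD mean lies under the mark, the size is uncertain. Its interaction in the first pair of replicates was 4.0, and in the second pair it was 2.76.

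The other called members of the list of male-biased liver genes had smaller interactions. That list also holds genes of growth hormone action, among them Ghr and Igf1. These are not taken here as male-biased genes but are part of the list's counts and medians. Of its 22 measured members besides Hsd3b5, 3 passed the test with a positive interaction (0.827% of all genes) and 0 with a negative one. The 3 were C8b, Ghr and Igf1, so C8b was the only male-biased gene among them. The median of these 22 members was 0.44. The median of the whole list was 0.58 in replicates 1 and 2 and 0.28 in replicates 3 and 4. C8b, a chain of complement component 8, read 9.81, 10.28, 10.65 and 10.59 in WT_Chow and 8.45, 8.76, 8.44 and 9.24 in WT_WD. In Tg_Chow C8b read 11.45, 11.15, 11.49 and 11.62 and in Tg_WD 11.15, 11.29, 11.33 and 10.99, with overlap. The diet lowered it in WT-labelled livers by 1.61 on the log2 scale, and its interaction was 1.38 (SE 0.26, adjusted p = 0.00911). Ghr, the growth hormone receptor, had an interaction of 0.57 (adjusted p = 0.0133). Its genotype difference was -0.51 on chow and 0.06 on the Western diet, so Ghr was set apart by a low level in Tg_Chow. Igf1, the growth factor induced by growth hormone in liver, had 0.49 (adjusted p = 0.0469), and its call held in only 3 of the 16 fits with 1 array left out. None of the 15 female-biased genes passed limma's adjusted threshold, with 1 of them at an unadjusted p under 0.05. All 4 group means lay under the brightness mark for 10 of the 15, so this count says little of them. The 5 brighter members, with no group mean under the mark, went both ways. The cytochromes Cyp2b9 and Cyp2b13 had estimates of -1.62 (SE 0.97, adjusted p = 0.533) and -1.51 (SE 0.64, adjusted p = 0.305). Cyp17a1 had 0.74 (SE 0.70), Acot3 0.57 (SE 0.54) and Abcd2 0.26 (SE 0.18). All of these but Cyp2b13 were chosen after their values were seen. Over the whole list 10 estimates were positive and 5 negative, with a median of 0.01.

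Several large positive interactions lay outside both groups. Car3, a carbonic anhydrase abundant in male rodent liver, read 12.23, 12.95, 12.04 and 11.69 in WT_Chow and 13.32, 12.71, 13.12 and 13.31 in WT_WD. Its levels were 9.58, 9.18, 9.01 and 9.38 in Tg_Chow and 12.31, 11.99, 11.52 and 11.95 in Tg_WD. Car3 was lower in the Tg-labelled livers on both diets, and the difference narrowed from -2.94 on chow to -1.17 on the Western diet, an interaction of 1.77 (SE 0.31, adjusted p = 0.00624). It was 2.35 in replicates 1 and 2 and 1.19 in replicates 3 and 4. The positive interaction of Car3 is thus a smaller deficit on the Western diet.

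Nfe2, a transcription factor best known from blood cell precursors, lay near background in the WT-labelled livers (6.08, 6.12, 6.10 and 6.19 on chow and 6.20, 6.15, 6.12 and 6.12 on the Western diet). Tg_Chow arrays read 6.52, 6.84, 7.31 and 7.29 and Tg_WD arrays 9.25, 8.88, 7.85 and 8.22, without overlap. Its interaction was 1.53 (SE 0.32, adjusted p = 0.0165), and in the first and second pair of replicates it was 2.31 and 0.76. Erythroid genes were measured for the same livers: 0 of 5 passed the interaction test and their mean level was 9.29 to 9.96 in Tg_Chow and 8.70 to 9.01 in Tg_WD. Their part in the Nfe2 result was not tested.

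Zap70, a kinase of the T cell receptor, crossed over between diets. It read 8.26, 8.28, 9.0 and 8.85 in WT_Chow and 7.17, 7.16, 6.80 and 7.40 in WT_WD, and 7.72, 7.29, 7.39 and 7.59 in Tg_Chow and 7.55, 8.10, 7.67 and 7.96 in Tg_WD. On chow the WT-labelled arrays were all higher, and on the Western diet the Tg-labelled arrays were all higher, an interaction of 1.79 (SE 0.24, adjusted p = 0.000887). Of 17 T, NK and B cell markers 0 passed limma's adjusted threshold and 3 had an unadjusted p under 0.05, and their mean level lay between 6.13 and 6.26 on all arrays, near background. Cyp4f14, a fatty acid and leukotriene hydroxylase, behaved in a similar way, with diet effects of -0.47 in the WT-labelled livers and 1.03 in the Tg-labelled ones and an interaction of 1.5 (adjusted p = 0.00169).

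Fatty acid synthesis genes, interferon genes and unfolded protein response genes each had a few members called higher and 0 lower. Over all genes, 0.827% were called higher. For fatty acid and triglyceride synthesis these were 3 of 22, the desaturase Fads1 (0.98), Acly, which supplies cytosolic acetyl-CoA from citrate (0.78), and the acetyl-CoA synthetase Acss2 (0.97). The list median was 0.13. The call of Acss2 was lost without any one of WT_Chow replicate 3, Tg_Chow replicates 2 and 4, WT_WD replicates 1 and 3 and Tg_WD replicate 4. Among 24 interferon genes 2 passed, the immunity-related GTPases Igtp (0.98) and Irgm1 (0.42), with a list median of 0.31, and the call of Irgm1 held in only 2 of the 16 fits with 1 array left out. Within replicates 1 and 2 the interaction of Fads1 was 0.61 and that of Irgm1 0.63, and within replicates 3 and 4 they were 1.36 and 0.2. Among 20 unfolded protein response genes 2 passed, the endoplasmic reticulum chaperone Hyou1 (0.88) and the disulfide isomerase Pdia4 (0.67), with a list median of 0.14.

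**Figure D3:**
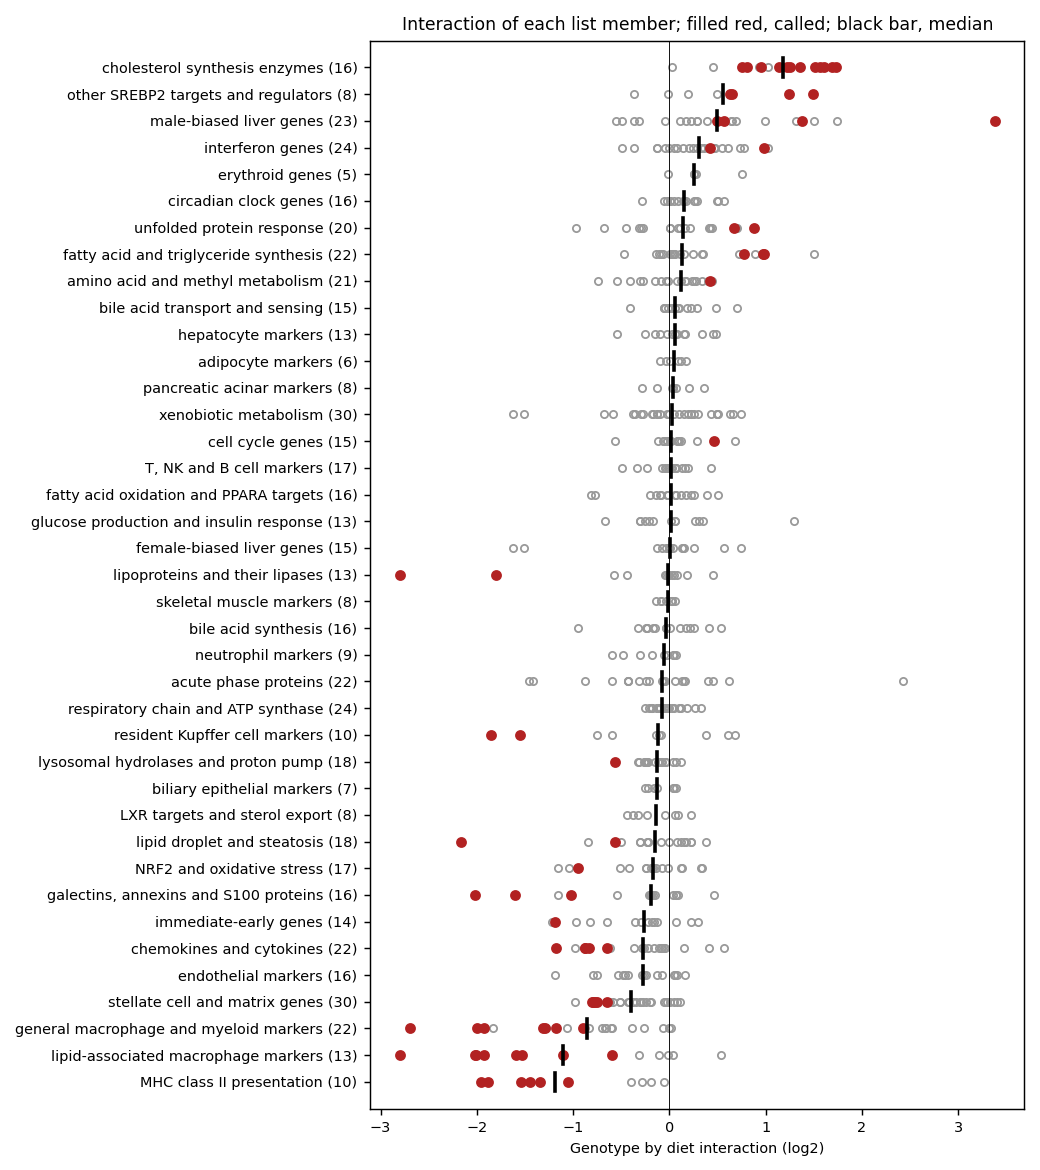
Genotype by diet interaction (log2) of each measured member of the gene lists, with 1 point per gene, called genes coloured and the list median marked. Cholesterol synthesis enzymes lie mostly above 0 (median 1.18), and MHC class II and lipid-associated macrophage markers mostly below it (medians -1.19 and -1.11).

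Most of the largest negative interactions were those of macrophage genes. By the diet effects alone, 9 of 13 lipid-associated macrophage markers, 18 of 22 general macrophage markers and 7 of 10 MHC class II genes rose in the WT-labelled livers (4.86% of all genes did), and 1 of each list rose in the Tg-labelled livers (2.07%). In RNA of whole liver, fewer cells of a type and less RNA per cell cannot be told apart. Of 13 measured markers of lipid-associated macrophages 8 had a negative interaction past the test, against 1.3% of all genes, 0 had a positive one, and the list median was -1.11. The list mean was 6.67 to 6.99 in WT_Chow, 7.82 to 8.20 in WT_WD, 6.93 to 7.12 in Tg_Chow and 7.15 to 7.23 in Tg_WD, so the WT_WD arrays stood above all others.

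Gpnmb, a membrane glycoprotein of lipid-laden macrophages, read 8.70, 8.78, 8.24 and 7.93 in WT_WD. It lay near background in WT_Chow (6.44, 6.11, 6.13 and 6.25), in Tg_Chow (6.09, 6.31, 6.09 and 6.05) and in Tg_WD (6.38, 6.36, 6.37 and 6.43). Only the WT-labelled livers on the Western diet were clearly above background, and the interaction was -1.93 (SE 0.20, adjusted p = 0.000104). Both chow means lie under the brightness mark, so its size is uncertain. Mmp12, the macrophage metalloelastase, read 6.34, 6.06, 6.07 and 6.73 in WT_Chow, 8.80, 9.10, 9.15 and 8.5 in WT_WD, 6.46, 6.32, 6.28 and 6.34 in Tg_Chow and 7.04, 6.52, 6.68 and 7.45 in Tg_WD. The diet effect was 2.59 in WT-labelled livers (adjusted p = 2.98e-07) and 0.57 in Tg-labelled livers (adjusted p = 0.1004), and the interaction was -2.01 (SE 0.26, adjusted p = 0.000780).

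Trem2, the lipid-sensing receptor of these macrophages, read 6.46, 6.11, 6.03 and 6.47 in WT_Chow and 8.10, 8.03, 7.90 and 7.57 in WT_WD. Its Tg-labelled levels were 6.46, 6.69, 6.24 and 6.28 on chow and 6.52, 6.39, 6.47 and 6.70 on the Western diet and overlapped. The interaction of Trem2 was -1.53 (SE 0.18, adjusted p = 0.000461). Lgals3, the lectin galectin-3, read 8.94, 8.19, 8.22 and 9.13 in WT_Chow, 11.53, 11.45, 11.47 and 10.66 in WT_WD, 8.65, 8.75, 8.54 and 9.33 in Tg_Chow and 9.36, 9.65, 9.33 and 9.47 in Tg_WD. The Tg_WD arrays lay at or just above the highest Tg_Chow array and the WT_WD arrays above all others, with an interaction of -2.02 (SE 0.32, adjusted p = 0.00266). The tetraspanins Cd63 (-1.59) and Cd9 (-1.11) and the actin-capping protein Capg (-0.60) also passed. Cd9 did not share the WT_WD pattern. It averaged 8.04 in WT_Chow, 8.87 in WT_WD, 9.06 in Tg_Chow and 8.77 in Tg_WD, and its WT_Chow arrays lay below all others. The genotype difference of Cd9 was 1.01 on chow and -0.10 on the Western diet, where the genotypes overlapped.

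Lpl, the lipoprotein lipase, belongs to this list and to the list of lipoprotein genes and had the largest negative interaction among called genes. It read 8.26, 8.05, 8.23 and 9.43 in WT_Chow and 11.77, 11.53, 11.61 and 11.45 in WT_WD. In Tg_Chow Lpl read 8.96, 8.28, 9.02 and 9.77 and in Tg_WD 9.19, 9.41, 9.35 and 9.25. WT_Chow replicate 4 was high for its group, and the 4 WT_WD arrays still lay above every other array. The diet effect was 3.10 in the WT-labelled livers and 0.30 in the Tg-labelled ones, an interaction of -2.80 (SE 0.38, 6.96-fold, adjusted p = 0.000888). The markers that did not pass were Fabp5 (0.54), Ctsk (-0.32), Ctsd (-0.11), Atp6v0d2 (0.04) and Itgax (-0.01), and the means of Atp6v0d2 and Itgax lay under the brightness mark in all 4 groups.

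MHC class II genes, which present antigen on macrophages, dendritic cells and B cells, moved in the same direction. Of 10 measured members 6 passed with a negative interaction (1.3% of all genes) and 0 with a positive one, and the list median was -1.19. The list mean was 8.43 to 8.62 in WT_WD and 7.41 to 7.67 in Tg_WD, and on chow it was 7.01 to 7.5 in WT-labelled and 7.16 to 7.49 in Tg-labelled livers. Thus the genotypes overlapped on chow and separated on the Western diet. H2-Ab1, a class II beta chain, read 8.32, 8.59, 7.90 and 8.90 in WT_Chow and 10.94, 10.95, 10.48 and 10.80 in WT_WD. Its Tg-labelled levels were 8.66, 8.73, 8.17 and 8.88 on chow and 9.05, 8.70, 9.0 and 9.30 on the Western diet, with overlap. The interaction was -1.96 (SE 0.27, adjusted p = 0.000887), and a second probe of H2-Ab1 gave -1.57.

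Cd74, the invariant chain that escorts class II molecules, read 9.26, 9.36, 8.84 and 9.92 in WT_Chow, 11.77, 11.88, 11.57 and 11.61 in WT_WD, 9.65, 9.54, 9.28 and 9.91 in Tg_Chow and 10.08, 9.85, 10.05 and 10.33 in Tg_WD. WT_WD stood above all other arrays, and the interaction was -1.88 (SE 0.25, adjusted p = 0.000790). The chains H2-Eb1 (-1.54) and H2-Aa (-1.45) and the peptide-exchange chains H2-DMa (-1.34) and H2-DMb1 (-1.05) passed as well. Ciita, the class II transactivator, had an estimate of -0.40 (adjusted p = 0.106), with 3 of its 4 group means under the brightness mark. H2-DMb2 (-0.28), H2-Ob (-0.19) and H2-Oa (-0.06), with all 4 group means under the mark, did not pass.

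**Figure D4:**
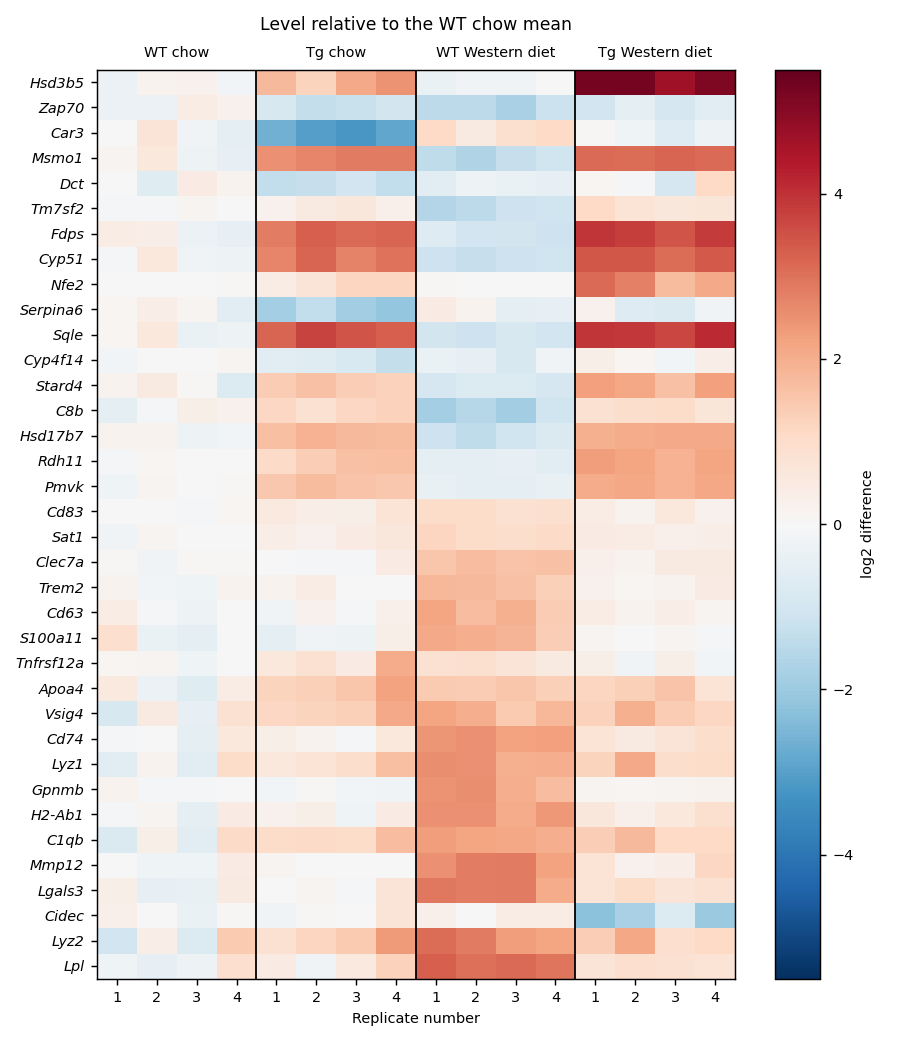
Log2 level of 36 named genes on each of the 16 arrays, relative to the gene's mean in WT_Chow (red higher, blue lower). Sterol synthesis genes are high in both Tg-labelled groups and lowest in WT_WD, and macrophage and class II genes are high in the 4 WT_WD arrays.

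General macrophage and myeloid markers had the same sign with wider spread. Of 22 measured members 7 passed with a negative interaction (1.3% of all genes) and 0 with a positive one, and the list median was -0.86. Unlike the lipid-associated markers, they mostly had higher estimates in Tg-labelled livers on chow. The median genotype difference was 0.44 on chow and -0.47 on the Western diet, against 0.06 and -0.58 for the lipid-associated list. By these medians the interaction of the general list drew on both diets, but most single differences did not pass the test. For genotype, 2 of the 22 passed as higher on chow (3.94% of all genes passed there). On the Western diet 7 passed as lower (6.78% of all genes passed there). The list mean on chow was 6.87 to 7.60 in WT-labelled and 7.51 to 8.04 in Tg-labelled livers, with overlap. C1qb, a chain of complement C1q made by macrophages, read 7.34, 8.45, 7.56 and 9.20 in WT_Chow and 10.44, 10.29, 10.27 and 10.13 in WT_WD. Its levels were 9.13, 9.17, 9.16 and 9.85 in Tg_Chow and 9.47, 9.93, 9.24 and 9.25 in Tg_WD. The WT_Chow arrays spread over more than 1 log2 unit, WT_WD lay above every other array, and the interaction was -2.0 (SE 0.42, adjusted p = 0.0173). Lyz2, the lysozyme of macrophages, had an interaction of -2.70 (SE 0.62, adjusted p = 0.0308), and a second Lyz2 probe gave -1.52. Its close copy Lyz1 had -1.93, while a second Lyz1 probe, whose mean of 5.87 lay under the brightness mark, gave -0.06, and the probes of these 2 genes may share signal. The calls of Lyz2 and Lyz1 were both lost without any one of WT_Chow replicate 3, Tg_Chow replicates 3 and 4, WT_WD replicates 1 and 2 and Tg_WD replicates 1, 3 and 4, and that of Lyz1 also without WT_Chow replicate 1.

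Tg_Chow replicate 4 had a mean of 8.04 on this list, against 7.51 to 7.59 in the other 3 arrays of its group. Without it 6 of the 22 markers passed and the list median was -0.72, while 8 of 13 lipid-associated macrophage markers and 6 of 10 class II genes passed with a negative interaction, with medians of -1.08 and -1.13, and 1 lipid-associated marker passed with a positive one. Across the 16 fits with 1 array left out, between 4 and 15 general macrophage markers passed, whereas 8 lipid-associated macrophage markers and 6 or 7 class II genes did. Within replicates 1 and 2 the medians of the general, lipid-associated and class II lists were -0.63, -1.27 and -1.21. Within replicates 3 and 4 they were -1.13, -0.95 and -1.14.

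Markers of resident Kupffer cells, the liver's own macrophages, did not move as one group. Of 10 measured members 2 passed with a negative interaction (1.3% of all genes), and the list median was -0.12. They were the complement receptor Vsig4 (-1.85) and the C-type lectin Cd207 (-1.55). Cd207 read 6.21, 6.44, 6.16 and 6.83 in WT_Chow, 8.17, 8.01, 7.58 and 7.64 in WT_WD, 6.55, 6.74, 6.94 and 7.39 in Tg_Chow and 6.54, 6.76, 6.61 and 7.28 in Tg_WD, with an adjusted p of 0.00675. The genotype difference of Vsig4 was 1.44 on chow, where the genotypes did not overlap, and -0.41 on the Western diet, where they did. The call of Vsig4 was lost without any one of WT_Chow replicate 3, Tg_Chow replicate 4, WT_WD replicates 1 and 2 and Tg_WD replicates 1, 3 and 4. Among the other members, chosen after their values were seen, Clec4f had -0.60 (adjusted p = 0.221) and the haemoglobin scavenger receptor Cd163 had 0.68 (adjusted p = 0.0643). Cd163 averaged 7.11 in WT_Chow, 6.28 in WT_WD, 7.58 in Tg_Chow and 7.43 in Tg_WD. Its diet effect in WT-labelled livers was -0.83 (limma adjusted p = 0.000396). Cd163 was the only 1 of the 10 Kupffer members that the Western diet lowered there by this threshold (3.61% of all genes fell). The diet raised 5 of the 10 (4.86% of all genes rose). Tg_Chow replicate 4 was high on the Kupffer list too, at 8.60 against 8.02 to 8.11 in the other arrays of its group.

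**Figure D5:**
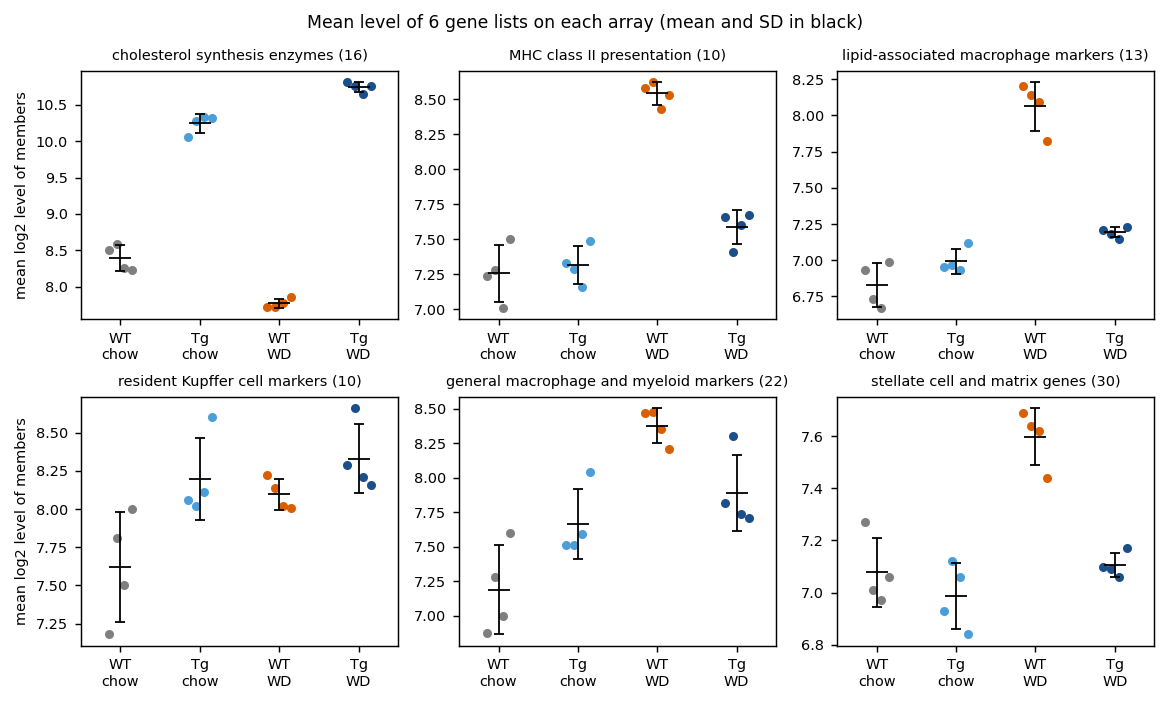
Mean log2 level of 6 gene lists on each of the 16 arrays, with 1 point per array and the group mean as a line. The class II and lipid-associated macrophage means are highest in WT_WD, the sterol synthesis mean is lowest in WT_WD and highest in Tg_WD, and Tg_Chow replicate 4 stands above its group on the general macrophage list.

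The myeloid genes Clec7a and Cd83, and also Sat1, ranked among the smallest adjusted p-values. Clec7a, the beta-glucan receptor dectin-1, read 6.77, 6.51, 6.76 and 6.79 in WT_Chow, 8.23, 8.41, 8.27 and 8.33 in WT_WD, 6.75, 6.63, 6.59 and 7.18 in Tg_Chow and 6.97, 6.92, 7.19 and 7.20 in Tg_WD. WT_WD lay above all other arrays, the interaction was -1.32 (SE 0.16, adjusted p = 0.000461), and 2 further probes of Clec7a gave -1.30 and -1.12. Cd83, a membrane protein of antigen-presenting cells, had -1.06 (adjusted p = 0.000626). Sat1, the enzyme that acetylates spermidine and spermine, had -1.10 (adjusted p = 0.000150) and read 11.19 to 11.38 in WT_WD against 10.03 to 10.84 on the other arrays.

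Chemokines and matrix genes had fewer members past the test. Among 22 chemokines and cytokines 5 had a negative interaction (1.3% of all genes) and 0 a positive one, with a list median of -0.27. Ccl6, a macrophage chemokine, read 6.01, 6.07, 6.05 and 6.17 in WT_Chow, 7.30, 7.06, 7.07 and 6.78 in WT_WD, 6.52, 6.70, 6.54 and 6.93 in Tg_Chow and 6.65, 6.57, 6.36 and 6.30 in Tg_WD. Its Tg-labelled groups overlapped, and the interaction was -1.18 (SE 0.15, adjusted p = 0.000780). The WT_Chow mean of Ccl6 (6.08) lay under the brightness mark, so this size is uncertain. The leukocyte attractants Ccl5 (-0.88), Cxcl16 (-0.88) and Ccl4 (-0.83) also passed. Across fits with 1 array left out, 4 to 7 members passed.

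Of 30 stellate cell and matrix genes 5 passed with a negative interaction (1.3% of all genes) and 0 with a positive one, with a list median of -0.40. The matrix glycoprotein Sparc had -0.79, the metalloproteinase inhibitor Timp1 -0.77, the proteoglycan decorin, Dcn, -0.75, and the intermediate filament protein Vim, which is also made by macrophages, -0.80. Timp1 averaged 6.13 in WT_Chow and 6.06 in Tg_Chow, under the brightness mark, so its size is uncertain. The calls of Sparc and Vim were both lost without any one of WT_Chow replicate 3, WT_WD replicates 1, 2 and 3 and Tg_WD replicates 1 and 4, and that of Vim also without WT_Chow replicate 1, Tg_Chow replicates 1, 2 and 3 or Tg_WD replicate 3. The list mean was 7.44 to 7.69 in WT_WD and 7.06 to 7.17 in Tg_WD. The number of members called ran from 3 to 11 with 1 array left out. Macrophage markers moved with these genes across the groups, and their part in the matrix result was not tested.

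Lipid droplet and lipoprotein genes showed single large changes. Cidec, a lipid droplet protein that enlarges droplets in fatty liver, read 10.16, 9.90, 9.49 and 9.93 in WT_Chow and 10.17, 9.90, 10.27 and 10.29 in WT_WD. Tg_Chow arrays read 9.67, 9.95, 9.89 and 10.56 and Tg_WD arrays 7.60, 8.09, 9.10 and 7.81, without overlap. Unlike the macrophage genes, Cidec was set apart by a drop in Tg_WD, with diet effects of -1.87 in Tg-labelled and 0.29 in WT-labelled livers and an interaction of -2.16 (SE 0.36, adjusted p = 0.00388). Pnpla2, the adipose triglyceride lipase, had -0.56 (adjusted p = 0.0126). These were the 2 of 18 lipid droplet genes that passed (2.13% of all genes passed), and the list median was -0.15.

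Apoa4, an apolipoprotein that rises with fat in the liver, read 13, 12.14, 11.79 and 12.84 in WT_Chow and 13.90, 13.86, 13.96 and 13.77 in WT_WD. Its levels were 13.65, 13.77, 13.98 and 14.66 in Tg_Chow and 13.64, 13.76, 14.03 and 13.18 in Tg_WD. Apoa4 was set apart by WT_Chow, whose 4 arrays lay below all others, and the Tg_Chow range held the whole WT_WD range. The interaction was -1.80 (SE 0.35, adjusted p = 0.0104). Lpl and Apoa4 were the 2 of 13 lipoprotein genes that passed (2.13% of all genes passed), and the list median was -0.01. Tnfrsf12a, the receptor of the cytokine TWEAK, crossed over: it read 7.46, 7.51, 7.10 and 7.34 in WT_Chow, 8.17, 8.24, 8.05 and 7.83 in WT_WD, 7.95, 8.20, 7.82 and 9.41 in Tg_Chow and 7.66, 7.18, 7.66 and 7.21 in Tg_WD. The diet effects were 0.72 and -0.92, an interaction of -1.64 (adjusted p = 0.0180).

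Besides Lgals3, 2 of 16 galectins, annexins and S100 proteins passed, the annexin Anxa3 (-1.02) and the calcium-binding protein S100a11 (-1.60), and the call of S100a11 was lost without WT_WD replicate 1 or 2. Over all genes 1.3% passed with a negative interaction, and the median of this list was -0.19. Klf6, a zinc finger factor of the immediate-early list, had -1.19 (adjusted p = 0.00168) and was the only 1 of that list's 14 measured members to pass.

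Bile acid genes, the pathway that CYP7A1 itself starts, had no member past the interaction test. Of 16 measured bile acid synthesis genes 0 passed limma's adjusted threshold and 2 had an unadjusted p under 0.05, with a list median of -0.03. Cyp2c70, which makes the muricholic acids of mice, had the smallest p, with an estimate of -0.95 (adjusted p = 0.124). Cyp8b1, the sterol 12-alpha-hydroxylase, had -0.33 and Cyp7b1, the oxysterol 7-alpha-hydroxylase, 0.54, with SE of 0.41 and 0.33. Of 15 bile acid transport and sensing genes 0 passed and 5 had an unadjusted p under 0.05, which 2145 of all 16558 genes had.

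Further lists had no called member in the same limma fit, where 2.13% of all genes were called. An unadjusted p under 0.05 was reached by 2145 of all 16558 genes. Sterol export genes of the LXR list had 0 of 8 called and 1 at an unadjusted p under 0.05, namely Abcg1 (-0.38, adjusted p = 0.0811). Fatty acid oxidation genes had 0 of 16 called and 0 at an unadjusted p under 0.05, as had the 24 genes of the respiratory chain and ATP synthase. Xenobiotic metabolism genes had 0 of 30 called and 9 at an unadjusted p under 0.05. Hepatocyte markers had 0 of 13 called and 2 at that level, with list means of 11.07 to 11.28 in WT_Chow, 10.93 to 11 in WT_WD, 11.12 to 11.33 in Tg_Chow and 10.94 to 11.06 in Tg_WD. Endothelial markers had 0 of 16 called and 7 at an unadjusted p under 0.05, with 12 negative estimates and a list median of -0.27. In the same order, neutrophil markers had 0 of 9 and 1, biliary markers 0 of 7 and 0, and acute phase proteins 0 of 22 and 7. Glucose production genes had 0 of 13 and 3, and clock genes 0 of 16 and 1. A gene that did not pass is not shown to respond alike in both genotypes, since the median SE of an interaction was 0.13 among genes above the brightness mark.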

How the data were processed

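The authors deposited 1 scanner file for each of 16 arrays with a linear signal intensity for each of 25697 rows, per the file headers, and a table of log2 values of the same arrays, which was analysed here. The authors' scaling step for those log2 values is not given in the labels or headers. They kept the order of the deposited intensities on every array (0 breaks) and lay within 0.0631 of the quantile-normalized log2 intensities, so the scale is log2, not centred per gene, and background was not subtracted. The deposited intensities served as an alternative source. Groups, replicate numbers, diets and ages were taken from the labels. The animals are separate mice, so the error includes the spread between animals, and the number of arrays limits the precision.

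The platform annotation named 23978 rows with 1 symbol each, 0 with several and 1719 with none, and 23962 rows matched a RefSeq gene by Entrez ID. The row of highest mean stood for a gene (386 genes had several distinct rows). A linear model with 1 mean per group was fitted in R 4.3.3 by the package limma, version 3.58.1 (files were read by the package data.table, version 1.17.8), with moderated variances (eBayes), 12 residual degrees of freedom before moderation, two-sided tests and Benjamini-Hochberg adjustment over 16558 genes within each contrast. The fit was tested on simulated data with known changes. SE is the standard error of the estimate (n = 4 arrays per group). Lists are described by counts and medians with no test.

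The lists and the split of the replicates were chosen with earlier results of these data known. The genes named were Cyp7a1, the 15 largest positive and 15 largest negative called interactions, the 10 smallest adjusted p-values, up to 4 called members of each list or else its member of smallest p, and members of the sterol, class II, lipid-associated macrophage and bile acid lists, and not all of them are described. Promoters with TCACNCCAC among called members were to be shown, none held it, and the 4 shown were chosen after that. Alternatives covered the source of values, scaling, dim rows, the row for a gene, a replicate block, the split of the replicates, an intensity trend and leaving out each array.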

Additional observations from a re-analysis of the deposited data

Results flagged for a closer look

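The genotype by diet interaction is itself a tested difference between the genotypes in their response to diet, and 353 genes passed it. No other test of one effect against another was made.

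Single arrays stood far from the other 3 of their group in 11 of 156 group means of gene lists and in 5 of 148 groups of single-gene levels, by Dixon's criterion, and chance gives about 1 in 20. Tg_Chow replicate 4 was high on general macrophage markers (8.04) and on resident Kupffer cell markers (8.60), and for the single gene C1qb (9.85). Tg_Chow replicate 1 was low on the other SREBP2 targets (9.01). On the Western diet, Tg_WD replicate 3 was high on fatty acid oxidation genes (10.86) and low for Cyp51 (11), Tg_WD replicate 4 was low on lipoprotein genes (11.92) and high on clock genes (7.67), and Tg_WD replicate 1 was high on xenobiotic metabolism genes (10). WT_WD replicate 4 was high on hepatocyte markers (11) and low on acute phase proteins (10.69) and for Lgals3 (10.66), and WT_WD replicate 2 was low on glucose production genes (8.35). Among WT-labelled livers on chow, replicate 1 was low on glucose production genes (8.45), replicate 4 was high for Lpl (9.43) and replicate 2 was low for Clec7a (6.51).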

How the results depend on the processing

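All 353 called genes kept their sign in each alternative that measured them. The count was 353 with the mean of a gene's rows, 362 from normexp-corrected scanner intensities, 380 with median scaling, 405 of 7789 genes in the brighter 50% of rows, 392 with the replicate split as a term and 315 with an intensity trend. Within replicates 1 and 2 only it was 55 (22 higher, 33 lower) and within replicates 3 and 4 only 17 (10 higher, 7 lower, 58.8% higher against 38.8% of the 353), with 2 arrays per group. With 1 array left out, the count ran from 221 to 394, that of higher genes from 87 to 147 and that of lower genes from 134 to 247; it moved by over 1.5 times without WT_Chow replicate 3, WT_WD replicate 1 or WT_WD replicate 2, and for lower genes also without Tg_WD replicate 1 (141). With replicate number as a block 344 genes passed (137 higher, 207 lower), 303 of them shared with the 353. Deviations of same-numbered arrays correlated between -0.21 and 0.24, and 9 of 16 arrays matched best with an array of their own number. Of 24 pairs 8 exceeded 0.1, among them all 4 of WT_Chow with Tg_Chow and 3 of 4 of WT_WD with Tg_WD, so the numbers did not pair the 4 groups as a whole but may tie arrays within a diet. With replicate number as a block within each diet, an alternative chosen after seeing the data, 489 genes passed (193 higher, 296 lower), 317 of them shared with the 353. In that fit 15 rather than 7 general macrophage markers passed with a negative interaction, the calls of Igf1 and Irgm1 were lost (adjusted p of 0.0563 and 0.0730), and Hamp2, Cd163 and Clec4f passed (adjusted p from 0.0187 to 0.0436). Of 80 called genes examined singly, 65 stayed past the threshold without any 1 array. Among the genes named, those that changed sign had not passed the test. The interaction of Lbr was -0.19, the interaction of Tmem97 -0.05 and the interaction of Npc1l1 0.08 in replicates 3 and 4 only, the interaction of Npc1l1 was 0.03 with median scaling, and the interaction of Cyp8b1 was 0.03 in replicates 1 and 2 only. In replicates 3 and 4 only, Scp2 had 0.05 (-0.24 over all arrays), H2-Oa 0.07, Ctsd 0.03, Slc27a2 0.02 and Atp6v0d2 -0.04, and in replicates 1 and 2 only Itgax had 0.05, each of the opposite sign to its pooled estimate. With 1 array left out, the interaction of Cyp7a1 ran from -0.39 to 0.42, that of Lbr from -0.03 to 0.10 and that of Npc1l1 from -0.06 to 0.04. The causes of these changes were not tested. Signals near background limit the size of differences: 38 called genes had 1 to 3 group means under the brightness mark and 3 had all 4.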

Other observations

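The following 5 genes of plasma proteins made by the liver were picked with their values in view, and they show nothing of such genes as a group. Mbl2, a mannose-binding lectin, had diet effects of -0.42 in the WT-labelled livers and 0.64 in the Tg-labelled ones, an interaction of 1.07 (SE 0.15, limma adjusted p = 0.00124). Klkb1, plasma prekallikrein, read 10.15, 10.19, 10.10 and 10.25 in WT_WD and 10.94, 10.99, 10.91 and 10.97 in Tg_WD, and its interaction was 0.90 (SE 0.11, adjusted p = 0.000626). F11, coagulation factor XI, had 0.98, Igfals, the acid-labile subunit that carries insulin-like growth factors in serum, 0.94, and Afm, the vitamin E binding protein afamin, 0.92. Each of these 5 genes had a negative estimate of the diet effect in WT-labelled and a positive one in Tg-labelled livers, and each interaction call held without any 1 array. The diet effect of F11 in WT-labelled livers (-0.29) did not pass, and its genotype difference had the same sign on both diets, 0.12 on chow and 1.11 on the Western diet.

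Hamp2, a hepcidin-like peptide gene of the acute phase list, had the second largest positive estimate of all genes, 2.43, and did not pass the test (SE 0.68, adjusted p = 0.0843). With replicate number as a block within each diet its adjusted p was 0.0436. Without 1 array its estimate ran from 1.97 to 2.99 and its adjusted p from 0.00750 to 0.160.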
